A study of Mus musculus with 8 samples.

Results

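The 9 genes described here encode receptors that decide where a lymphocyte goes in lymphoid tissue and when it leaves: the chemokine receptors Cxcr4, Cxcr5, Cxcr3, Ccr6 and Ccr7, the integrin subunits Itga4 and Itgb7, the sphingosine-1-phosphate receptor S1pr1 and the oxysterol receptor Gpr183. They were chosen by symbol, for their known roles, from the 24902 symbols of a bulk RNA-seq count matrix of splenic B cells. Earlier results of these data were known when the choice was made. All 9 had a value in all 8 libraries and all 9 passed the expression filter, among 13173 genes tested. The cells came from spleens of mice that had reached early removal criteria (ERC, the state of disease at which a mouse is euthanized), and were isolated with a pan-B cell kit. In the 3 groups, 4 Eµ-PRMT5 mice carried human PRMT5, an arginine methyltransferase, 3 Eµ-PRMT5/TCL1 mice carried human PRMT5 and human TCL1, and 1 Eµ-TCL1 mouse carried human TCL1, an oncogene whose expression in B cells gives a model of chronic lymphocytic leukemia (CLL). The strain label was C57BL/6N for all mice, every mouse carried at least 1 transgene, and wild-type mice were not analysed here. Human PRMT5 was placed under a VH promoter and the immunoglobulin heavy-chain Eµ enhancer, which are active in immature and mature B cells, and the double transgenics came from a cross with homozygous Eµ-TCL1 mice. The label of Eµ-PRMT5 mouse 2 carries an identifier that the methods give for a founder of the transgene. The labels of Eµ-PRMT5 mice 3 and 4 carry numbers that the paper also uses in its histology. It describes large anaplastic lymphocytes with histiocytes under the first and small lymphocytes under the second. Whether these are the same animals is not stated. The labels used here give no ages, and Eµ-TCL1 has 1 mouse, so a comparison with it asks only whether this mouse lay outside the spread of the replicated groups.

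As background, chemokine receptors are G protein-coupled receptors that move cells up gradients of chemokines held by stromal cells. CXCR5 and CCR7 pull B cells toward the follicle and the T cell zone, GPR183 toward the outer follicle, and CXCR4 toward stroma rich in CXCL12, as in bone marrow, the splenic red pulp and the dark zone of germinal centers. S1PR1 senses sphingosine-1-phosphate, which is abundant in blood and lymph, and drives exit from the tissue. The integrin chains ITGA4 and ITGB7 pair as α4β7, which binds MADCAM1 on vessels of the gut, and ITGA4 also pairs with ITGB1 as α4β1, which binds VCAM1 and fibronectin. Several of these receptors are known to take part in the homing of CLL cells to lymph nodes, spleen and marrow.

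For 6 of the 9 genes the RefSeq table (GRCm38.p6) held a promoter, and none was found there for Cxcr5, Ccr7 and S1pr1. The windows of 3 are shown, 250 bases before the RefSeq start read 5′ to 3′ on the gene's strand, because Cxcr4 and Ccr6 had the lowest unadjusted p between the replicated genotypes and Itgb7 had the highest level. Capitals mark matches, on either strand, to short motifs: the GC box GGGCGG, the CACCC box CCACCC, the octamer ATGCAAAT and the TATA box TATAAA. The first lies at chr1:128592300-128592549 (minus strand), the second at chr17:8235793-8236042 (plus strand) and the third at chr15:102231936-102232185 (minus strand).
Cxcr4: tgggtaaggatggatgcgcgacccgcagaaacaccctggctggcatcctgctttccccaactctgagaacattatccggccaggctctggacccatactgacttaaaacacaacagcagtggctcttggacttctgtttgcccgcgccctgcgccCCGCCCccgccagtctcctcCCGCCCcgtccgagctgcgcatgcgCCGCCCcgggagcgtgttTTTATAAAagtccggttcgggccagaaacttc
Ccr6: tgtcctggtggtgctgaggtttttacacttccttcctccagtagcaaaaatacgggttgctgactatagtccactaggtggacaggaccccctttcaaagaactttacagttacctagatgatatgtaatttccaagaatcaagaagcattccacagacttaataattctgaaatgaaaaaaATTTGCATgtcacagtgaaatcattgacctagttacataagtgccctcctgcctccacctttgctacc
Itgb7: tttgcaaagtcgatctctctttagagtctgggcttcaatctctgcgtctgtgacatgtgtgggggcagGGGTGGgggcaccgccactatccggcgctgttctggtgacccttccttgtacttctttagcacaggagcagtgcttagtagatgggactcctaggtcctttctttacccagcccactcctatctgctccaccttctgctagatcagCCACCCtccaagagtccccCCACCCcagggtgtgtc
The Cxcr4 window held 3 GC boxes and 2 overlapping TATA matches, one on each strand, with 61.2% G and C against a median of 52.4% over all windows of this length. The Ccr6 window held 1 octamer, a motif bound by OCT factors in B cells, and its G and C content was 41.2%. A second RefSeq start of Ccr6 had a window with no match to any of the motifs. The Itgb7 window held 3 CACCC boxes. Of all 32851 RefSeq windows, 32.7% held a GC box, 28.1% a CACCC box, 1.6% an octamer and 12.4% a TATA match. The cyclic AMP response element TGACGTCA (1.55% of windows) and the E-box CACGTG (6.02%) were also searched for and were in none of the members' windows. GC box matches were also in the Itga4 window, as were CACCC boxes. A match is a description of these letters and was not tested as a binding site.

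Between 3356297 and 10252426 counts fell on genes per library. The 8 B cell markers listed, among them Ms4a1, Cd79a, Pax5 and Ebf1, were detected in every library, with a summed level of 1917 to 6921 CPM (counts relative to library size, scaled by TMM factors) in Eµ-PRMT5 mice and 3620 to 8770 CPM in Eµ-PRMT5/TCL1 mice. The Eµ-TCL1 mouse had 5194 CPM. Eµ-PRMT5 mouse 4 was the lowest of the 8 mice for 5 of these 8 markers. Of 10 T cell markers, 8 were tested and summed to 295 to 830 CPM, 284 to 749 CPM and 256 CPM in the 3 genotypes. Lck alone gave 667 of the 749 CPM in Eµ-PRMT5/TCL1 mouse 2, and the other 7 summed to 88.3 to 443 CPM, 81.0 to 123 CPM and 134 CPM. Cd4 and Cd8a had no value in at least 1 library. Eµ-PRMT5 mouse 3 had the highest sum of the T cell markers and of 4 tested markers of NK cells (364 CPM, against 21.1 to 84.8 CPM in the other 7 mice). Not every single marker was highest there: Cd3g peaked in Eµ-PRMT5 mouse 4, Lck in Eµ-PRMT5/TCL1 mouse 2 and Klrk1 in Eµ-PRMT5/TCL1 mouse 1. Prmt5 was at 62.7 to 235 CPM in Eµ-PRMT5 mice, at 110.01 to 126 CPM in Eµ-PRMT5/TCL1 mice and at 79.5 CPM in the Eµ-TCL1 mouse, and whether its counts include transgene reads was not tested. All 10 neutrophil and granulocyte precursor markers were tested, with sums of 436 to 5299 CPM, 657 to 9178 CPM and 595 CPM, and Ly6g was at 0 in at least 1 library. Further sums were 137 to 410, 278 to 710 and 164 CPM for 4 tested of 9 macrophage markers, 23.6 to 355, 57.9 to 324 and 34.1 CPM for 5 of 7 erythroid markers, 689 to 5760, 518 to 2819 and 2068 CPM for 6 of 6 plasma cell markers, and 24.2 to 90.2, 34.0 to 56.4 and 70.3 CPM for 3 of 6 dendritic cell markers. In bulk samples, fewer cells of a type and less RNA per cell cannot be told apart. The part of other cells in the receptor levels was not tested.

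Levels between genes were compared as CPM per kilobase of annotated exon (GENCODE vM21, all exons of a gene joined). Itgb7 stood first, with a median of 252 CPM per kb over the 8 mice, and it was the highest of the 9 genes in 7 mice; in Eµ-PRMT5 mouse 2 Ccr7 was first. Ccr7 followed at 89.9, S1pr1 at 66.0, Cxcr5 at 53.0, Cxcr4 at 19.4 and Gpr183 at 16.9 CPM per kb. Itga4 (5.55), Ccr6 (3.48) and Cxcr3 (3.18) closed the order. Neighbours in this order often changed places between mice. S1pr1 exceeded Cxcr5 in 4 of 8 mice, Cxcr5 exceeded Cxcr4 and Cxcr4 exceeded Gpr183 in 5 each, Itga4 exceeded Ccr6 in 4 and Ccr6 exceeded Cxcr3 in 4, so these neighbours did not differ beyond their spread. Itgb7 exceeded Ccr7 in 7 of 8 mice, and Gpr183 exceeded Itga4 in 7 of 8. The value of Itga4 rests on a joined exon length of 13978 bases, the longest of the 9.

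**Figure D1:**
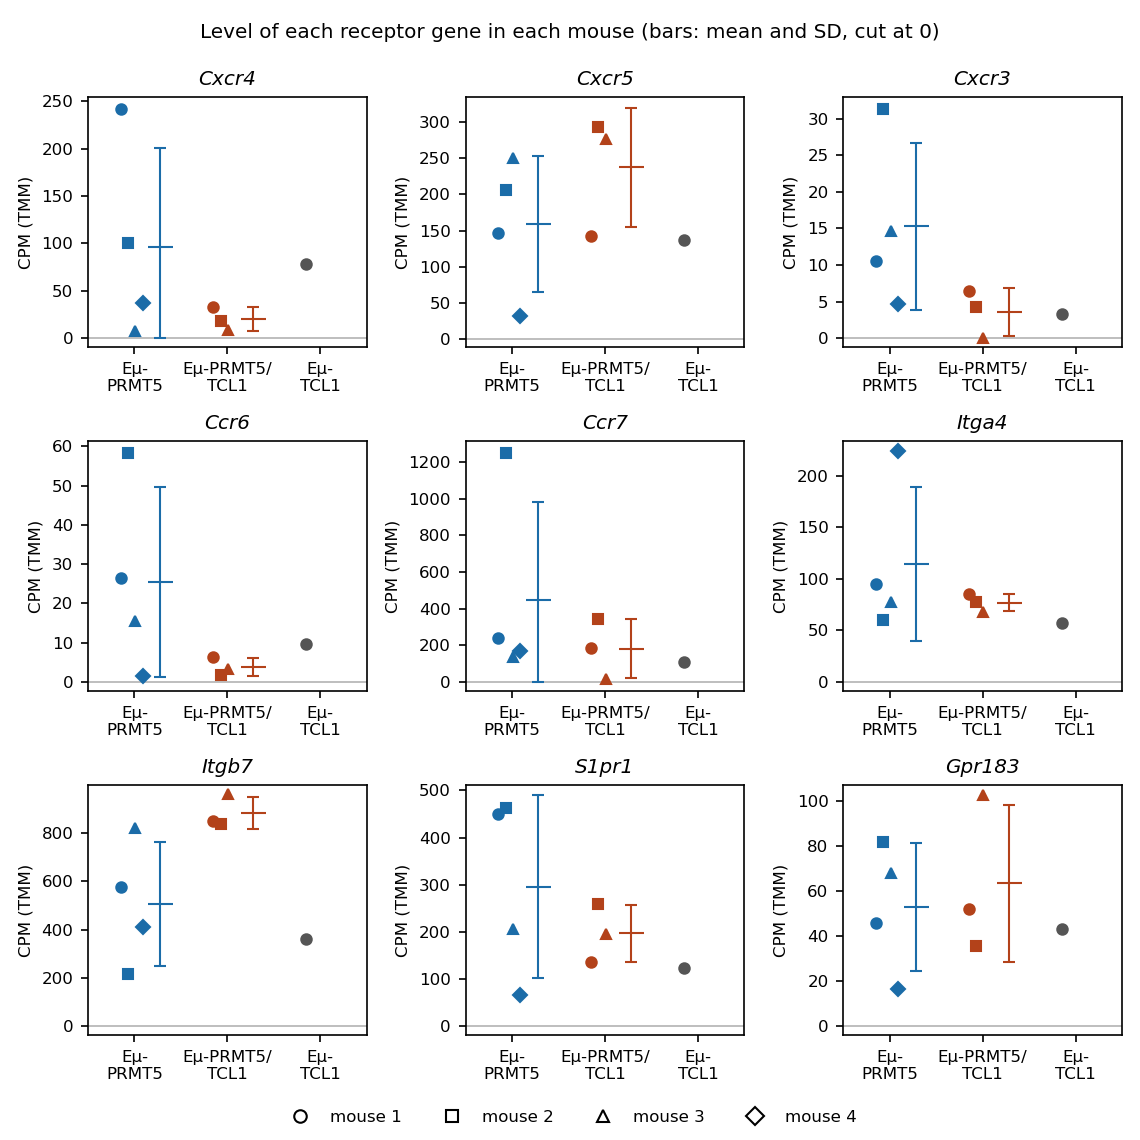
Level of each of the 9 genes (TMM-scaled CPM, linear axis) by genotype (4, 3 and 1 mice); symbols are mice, bars are the mean and SD, and a lower bar that would pass 0 ends there. Cxcr4 runs from 7.52 to 242 CPM among Eµ-PRMT5 mice, and the 3 Eµ-PRMT5/TCL1 mice sit between 840 and 962 CPM for Itgb7.

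No receptor passed the test between the double transgenic and the Eµ-PRMT5 mice. Cxcr4, Cxcr3 and Ccr6 had lower mean levels in Eµ-PRMT5/TCL1 mice, by 4.27 to 6.56-fold in the fit, and Itgb7 had the highest level there and the least spread by fold, but all of these differences were within what the spread between mice allowed after adjustment. Called genes, at an adjusted p under 0.05 in edgeR's quasi-likelihood test with Benjamini-Hochberg adjustment, numbered 0 of 9 members and 0 of 13173 genes tested (0%). At an unadjusted p under 0.05, 2 of the 9 were lower (Ccr6 and Cxcr4), against 1.21% of all genes tested, and 0 were higher, against 0.957%. With upper-quartile scaling the split over all genes moved from 126 higher and 160 lower to 144 and 107, and the 2 members at an unadjusted p under 0.05 were again Ccr6 and Cxcr4. Leaving out 1 mouse at a time gave from 0 members, without Eµ-PRMT5/TCL1 mouse 2, to 4, all lower, without Eµ-PRMT5 mouse 4 (Ccr6, Cxcr3, Cxcr4 and S1pr1, against 2.8% of all genes lower in that fit). DESeq2 called 0 of 9 members and had 3 at an unadjusted p under 0.05, Ccr6, Cxcr4 and Cxcr3, all lower. Of all 13140 genes with a p-value in DESeq2, 146 were higher and 248 lower at that threshold. The median log2 fold change was -0.58 over the 9 genes and -0.09 over all genes tested, and 3 of the 9 were positive against 40.6% of all genes. These p-values measure the spread between mice, which was wide, with a biological coefficient of variation of 48.3%.

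Cxcr4 and S1pr1 pull in opposite directions in the textbook view, toward stroma and toward the circulation. Cxcr4 (chromosome 1, 128588199 to 128592293, GRCm38) measured 242, 99.9, 7.52 and 37.1 CPM in Eµ-PRMT5 mice 1 to 4, then 33.1, 18.2 and 8.30 CPM in Eµ-PRMT5/TCL1 mice 1 to 3, and 78.4 CPM in the Eµ-TCL1 mouse. Eµ-PRMT5 mice 1 and 2 and the Eµ-TCL1 mouse were high, and Eµ-PRMT5 mouse 3 was the lowest of all 8, so the replicated groups overlapped and Eµ-PRMT5 mice alone spanned 32.2-fold. The means were 96.6 ± 104 CPM (SD, n = 4) and 19.9 ± 12.5 CPM (SD, n = 3). The log2 fold change of Cxcr4 in Eµ-PRMT5/TCL1 against Eµ-PRMT5 mice was -2.28 (standard error 0.89, unadjusted p = 0.0248, adjusted p = 1.00 by edgeR's quasi-likelihood test). It was -1.27 without Eµ-PRMT5 mouse 1, with an unadjusted p of 0.121, and without Eµ-PRMT5/TCL1 mice 2 and 3 in turn the unadjusted p was 0.0644 and 0.0838.

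S1pr1 (chromosome 3, 115710433 to 115715072) measured 449.5, 463, 205 and 65.8 CPM in Eµ-PRMT5 mice 1 to 4 and 137, 259 and 197 CPM in Eµ-PRMT5/TCL1 mice. The Eµ-TCL1 mouse had 125 CPM. Eµ-PRMT5 mice 1 and 2 lay above all other mice and Eµ-PRMT5 mouse 4 below them, so the 3 Eµ-PRMT5/TCL1 values fell inside the range of the Eµ-PRMT5 mice. The means were 296 ± 194 CPM (SD, n = 4) and 197 ± 60.7 CPM (SD, n = 3), and the log2 fold change was -0.58 with a standard error of 0.56 (adjusted p = 1.00, edgeR's quasi-likelihood test).

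Cxcr5, Ccr7 and Gpr183 place B cells within the follicle and at its borders. Cxcr5 (chromosome 9, 44511787 to 44561877), the receptor of the follicular chemokine CXCL13, measured 147, 206, 250.3 and 31.9 CPM in Eµ-PRMT5 mice 1 to 4. It measured 142, 293 and 277 CPM in Eµ-PRMT5/TCL1 mice 1 to 3 and 137 CPM in the Eµ-TCL1 mouse. Of the 8 mice, 7 lay within 137 to 293 CPM, and the exception was Eµ-PRMT5 mouse 4, which was also the lowest for 5 of the 8 B cell markers. The part of the B cell content of the sample in this level was not tested. The group means of Cxcr5 were 159 ± 94.7 CPM (SD, n = 4) and 237 ± 82.6 CPM (SD, n = 3), and the log2 fold change was 0.58 with a standard error of 0.55 (adjusted p = 1.00, edgeR's quasi-likelihood test). Exons of Cxcr5 overlap those of Bcl9l on the other strand, and whether counting used the strand is not stated, so reads of both cannot be told apart; Bcl9l itself was counted at 8.88 to 77.6 CPM.

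Ccr7 (chromosome 11, 99144196 to 99155077), which binds CCL19 and CCL21 of the T cell zone and of lymph node vessels, measured 238, 1251, 134 and 169 CPM in Eµ-PRMT5 mice 1 to 4. In Eµ-PRMT5/TCL1 mice it was 187, 342 and 18.9 CPM, and in the Eµ-TCL1 mouse 107 CPM. One mouse stood apart at each end: Eµ-PRMT5 mouse 2 at 1251 CPM was far above the next, at 342 CPM, and Eµ-PRMT5/TCL1 mouse 3 was the lowest, so that the whole span was 66.2-fold. The means were 448 ± 537 CPM (SD, n = 4) and 183 ± 162 CPM (SD, n = 3), and the log2 fold change was -1.29 with a standard error of 0.91 (adjusted p = 1.00, edgeR's quasi-likelihood test). Without Eµ-PRMT5 mouse 2 it was 0.02, so the direction for Ccr7 rested on that mouse.

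Gpr183 (chromosome 14, 121952551 to 121965195), the receptor for 7α,25-dihydroxycholesterol, measured 45.7, 81.7, 67.9 and 16.3 CPM in Eµ-PRMT5 mice 1 to 4. The Eµ-PRMT5/TCL1 mice had 52.0, 35.6 and 102.6 CPM and the Eµ-TCL1 mouse 43.3 CPM. Eµ-PRMT5 mouse 4 was again the lowest, Eµ-PRMT5/TCL1 mouse 3 was the highest, and the groups overlapped over most of their range. The means were 52.9 ± 28.6 CPM (SD, n = 4) and 63.4 ± 34.96 CPM (SD, n = 3), and the log2 fold change was 0.26 with a standard error of 0.52 (adjusted p = 1.00, edgeR's quasi-likelihood test), which turned to -0.27 without Eµ-PRMT5/TCL1 mouse 3 and to -0.04 without Eµ-PRMT5 mouse 4.

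Cxcr3 and Ccr6 had the lowest medians per kilobase of the 9, although the mean over Eµ-PRMT5 mice was lowest for Itga4, at 8.17 CPM per kb. Ccr6 (chromosome 17, 8236043 to 8257141), the receptor of CCL20, measured 26.6, 58.4, 15.5 and 1.499 CPM in Eµ-PRMT5 mice 1 to 4 and 6.39, 1.86 and 3.38 CPM in Eµ-PRMT5/TCL1 mice. The Eµ-TCL1 mouse had 9.73 CPM. Eµ-PRMT5 mice 1 to 3 were above every other mouse, but Eµ-PRMT5 mouse 4, with 13 counts, was the lowest of all 8, and the groups therefore overlapped. The means were 25.5 ± 24.2 CPM (SD, n = 4) and 3.88 ± 2.31 CPM (SD, n = 3). The log2 fold change of Ccr6 was -2.71 (standard error 0.94, unadjusted p = 0.0137, adjusted p = 1.00, edgeR's quasi-likelihood test), and -1.90 without Eµ-PRMT5 mouse 2, with an unadjusted p of 0.0567. Without Eµ-PRMT5/TCL1 mouse 2 that of Ccr6 was 0.0525.

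Cxcr3 (chromosome X, 101731535 to 101734269), which binds CXCL9 and CXCL10 and is carried by effector T cells, NK cells and some B cells, measured 10.6, 31.3, 14.6 and 4.61 CPM in Eµ-PRMT5 mice 1 to 4. It was at 6.39 and 4.29 CPM in Eµ-PRMT5/TCL1 mice 1 and 2, 0 counts in mouse 3, which allows a level of up to 0.461 CPM (3 counts), and 3.24 CPM (12 counts) in the Eµ-TCL1 mouse. The 3 highest values were all in Eµ-PRMT5 mice, and Eµ-PRMT5 mouse 4 lay among the Eµ-PRMT5/TCL1 values. Eµ-PRMT5 mouse 3, which was the highest for the summed T and NK cell markers, was second for Cxcr3, below mouse 2. The means were 15.3 ± 11.5 CPM (SD, n = 4) and 3.56 ± 3.26 CPM (SD, n = 3), and the log2 fold change was -2.10 with a standard error of 1.01 (adjusted p = 1.00, edgeR's quasi-likelihood test). Floors and counts here cover counting error only.

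Itga4 and Itgb7 encode the chains of the gut-homing integrin α4β7. Itgb7 (chromosome 15, 102215995 to 102231944) measured 575, 216, 821 and 409 CPM in Eµ-PRMT5 mice 1 to 4, 853, 839.9 and 962 CPM in Eµ-PRMT5/TCL1 mice 1 to 3 and 359.8 CPM in the Eµ-TCL1 mouse. The 3 Eµ-PRMT5/TCL1 mice lay within 1.15-fold of each other, whereas the Eµ-PRMT5 mice spanned 3.80-fold. All 3 Eµ-PRMT5/TCL1 mice were above every Eµ-PRMT5 mouse for this 1 of the 9 genes, against 1.35% of all genes tested, and no member was below in all 3, against 1.59%. The gap was narrow and rested on the scaling: with upper-quartile scaling and with library size only, Eµ-PRMT5 mouse 3 reached 926 and 945 CPM, above the lowest Eµ-PRMT5/TCL1 mouse at 839 and 822 CPM. The means were 505 ± 257 CPM (SD, n = 4) and 885 ± 67.3 CPM (SD, n = 3), and the log2 fold change was 0.81 with a standard error of 0.44 (unadjusted p = 0.088, adjusted p = 1.00, edgeR's quasi-likelihood test).

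Itga4 (chromosome 2, 79255426 to 79333123) measured 95.0, 60.3, 77.7 and 224 CPM in Eµ-PRMT5 mice 1 to 4 and 85.3, 77.4 and 68.2 CPM in Eµ-PRMT5/TCL1 mice. The Eµ-TCL1 mouse had 57.3 CPM. Eµ-PRMT5 mouse 4 was high and the other 7 mice lay between 57.3 and 95.0 CPM. That mouse had the lowest B cell marker sum. Its sum of 10 neutrophil and granulocyte precursor markers was 5299 CPM, with Mpo at 997, S100a8 at 640 and S100a9 at 435 CPM. Eµ-PRMT5/TCL1 mouse 1 had a sum of 9178 CPM, with Mpo at 3498, S100a8 at 427 and S100a9 at 329 CPM. Its Itga4 was at 85.3 CPM. The part of myeloid cells in the Itga4 level was not tested. The means were 114 ± 74.5 CPM (SD, n = 4) and 76.9 ± 8.52 CPM (SD, n = 3), and the log2 fold change was -0.57 with a standard error of 0.44 (adjusted p = 1.00, edgeR's quasi-likelihood test). Without Eµ-PRMT5 mouse 4 it was -0.01. Exons of Itga4 overlap those of Cerkl on the other strand, which was counted at 1.62 to 12.4 CPM.

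**Figure D2:**
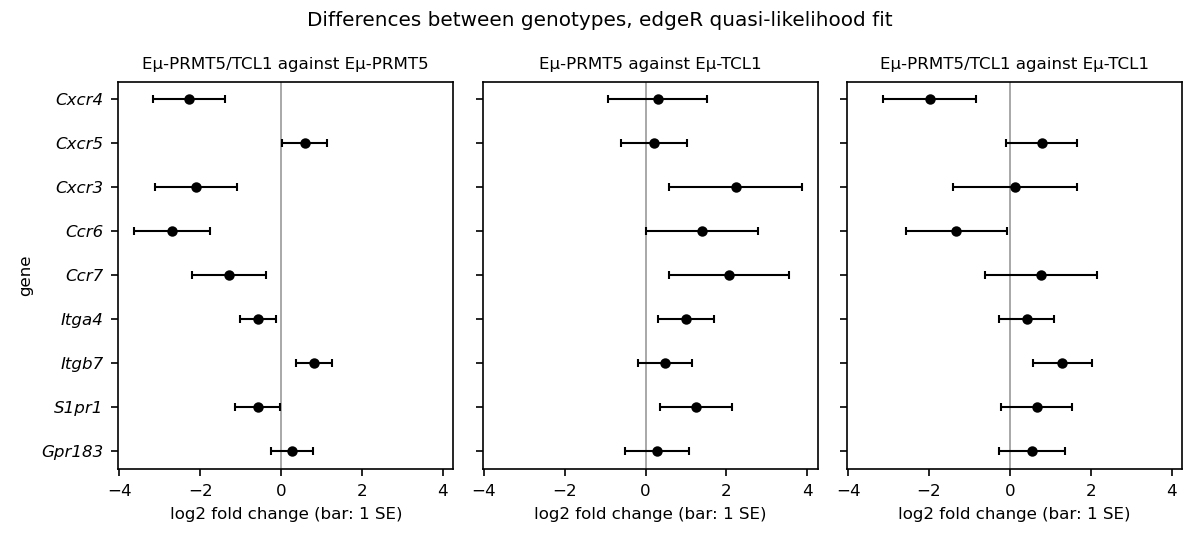
Log2 fold change of each gene (horizontal axis, bars of 1 standard error) in the 3 comparisons of genotypes, from edgeR's quasi-likelihood fit; the line at 0 marks no difference. Ccr6 and Cxcr4 are furthest below 0 in Eµ-PRMT5/TCL1 against Eµ-PRMT5 mice, at -2.71 and -2.28, and no gene passed the adjusted threshold in any panel.

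Ratios of receptors within a library do not depend on the scaling between libraries, and 3 were compared. The log2 ratio of Cxcr5 to Ccr7, follicle against T cell zone, was -0.69, -2.60, 0.90 and -2.39 in Eµ-PRMT5 mice 1 to 4. The double transgenic mice had -0.39, -0.23 and 3.85, and the Eµ-TCL1 mouse had 0.35. The high ratio of Eµ-PRMT5/TCL1 mouse 3 came with the lowest Ccr7 of all mice. The means were -1.20 ± 1.64 (SD, n = 4) and 1.08 ± 2.40 (SD, n = 3), and they differed by 2.27 (two-sided exact permutation test over 35 splits, p = 0.2, 0.3 after Benjamini-Hochberg adjustment over the 3 ratios). The smallest p these groups allow is 0.0286.

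The log2 ratio of Cxcr4 to S1pr1, retention against egress, was -0.89, -2.21, -4.71 and -0.82 in Eµ-PRMT5 mice. The double transgenic mice had -2.04, -3.81 and -4.51, and the Eµ-TCL1 mouse had -0.67. S1pr1 counts thus exceeded those of Cxcr4 in all 8 libraries, and the Eµ-TCL1 mouse had the highest ratio of the 8. The ratio is not scaled to exon length, which is 3046 bases for S1pr1 and 1808 for Cxcr4. Per kilobase of exon, Cxcr4 was above S1pr1 in the Eµ-TCL1 mouse, at 43.4 against 40.9 CPM. It was below S1pr1 in every Eµ-PRMT5 and Eµ-PRMT5/TCL1 mouse. The difference between the replicated groups was -1.29 (means -2.16 ± 1.82, SD, n = 4, and -3.45 ± 1.27, SD, n = 3), with p = 0.343 and 0.343 after adjustment by the same exact permutation test.

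The log2 ratio of Itgb7 to Itgb1, the alternative partners of the ITGA4 chain, was 0.79, -0.73, 0.54 and 0.21 in Eµ-PRMT5 mice. The double transgenic mice had 1.30, 0.94 and 0.41, and the Eµ-TCL1 mouse had 0.48. Itgb7 was counted above Itgb1 in 7 of 8 libraries, the exception being Eµ-PRMT5 mouse 2. The means were 0.20 ± 0.67 (SD, n = 4) and 0.88 ± 0.45 (SD, n = 3), and the difference of 0.68 had p = 0.2 and 0.3 after adjustment (exact permutation test). For all 3 ratios the groups overlapped.

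**Figure D3:**
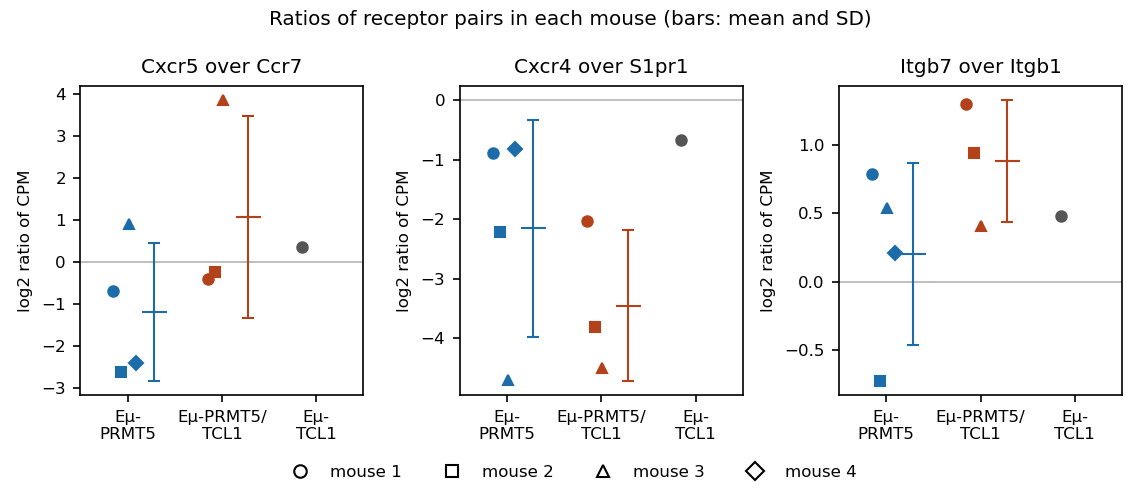
Log2 ratio of CPM of 3 receptor pairs in each mouse, with the mean and SD of the replicated groups. The grey line at 0 marks equal CPM, not scaled to exon length. The Cxcr4 over S1pr1 ratios are all below 0, from -4.71 to -0.67, and the highest Cxcr5 over Ccr7 ratio is 3.85, in Eµ-PRMT5/TCL1 mouse 3.

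The levels were also set against the B cell markers of the same mouse, by taking from each log2 CPM the mean log2 CPM of the 8 markers. This scale was chosen after seeing that Eµ-PRMT5 mouse 4 was low in most of them. The span over the 8 mice shrank from 3.18 to 1.63 on the log2 scale for Cxcr5, from 2.63 to 1.60 for Gpr183 and from 2.81 to 2.12 for S1pr1. For Itga4 it grew from 1.96 to 3.74. Cxcr4 (4.95 and 5.04), Ccr6 (5 and 5.15) and Itgb7 (2.16 and 2.31) had about the same span on both scales, and Ccr7 (6.02 and 6.91) a wider one. No span is given for Cxcr3, which had 0 counts in Eµ-PRMT5/TCL1 mouse 3, so that its span depends on the prior count. On this scale the mean differences, double transgenic minus Eµ-PRMT5, were -1.84 for Cxcr4, -2.22 for Ccr6 and 0.69 for Itgb7, against -1.56, -1.95 and 0.97 without it. They are descriptions with no test.

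**Figure D4:**
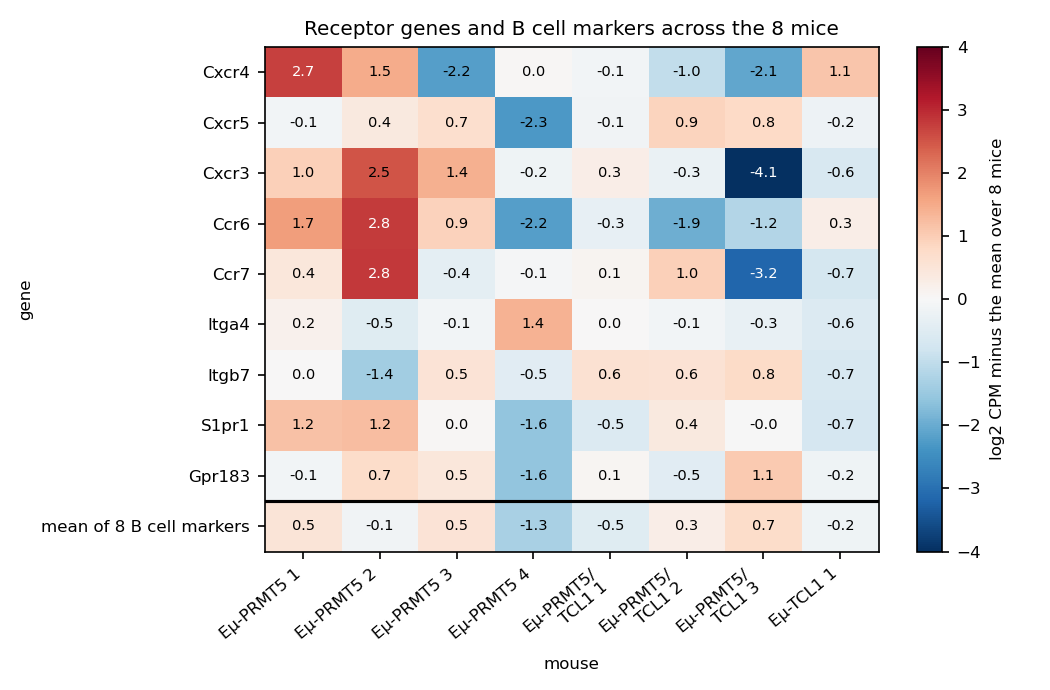
Log2 CPM of each gene in each mouse minus its mean over the 8 mice (color and printed value), with the mean of 8 B cell markers in the bottom row. Eµ-PRMT5 mouse 4 is low in Cxcr5, Ccr6, S1pr1 and Gpr183 and in the B cell markers and high in Itga4, and Eµ-PRMT5 mouse 2 is high in Cxcr3, Ccr6 and Ccr7.

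The mice differed in which receptors they carried at high level. Eµ-PRMT5 mouse 2 had the highest level of all 8 mice for 4 of the 9 genes, namely Cxcr3, Ccr6, Ccr7 and S1pr1, and the lowest for Itgb7. Eµ-PRMT5 mouse 4 had the lowest level for Cxcr5, Ccr6, S1pr1 and Gpr183. Eµ-PRMT5/TCL1 mouse 3 was highest for Itgb7 and Gpr183 and lowest for Ccr7 and Cxcr3.

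The genes whose levels were most like each receptor over the 8 mice were found among 10414 other genes with a mean of at least 8 CPM, by the root mean square difference of centred log2 CPM. Among the genes nearest to Cxcr5 was Nphp4 (0.33, against a standard deviation of Cxcr5 of 0.96). Gpr183 was closest to Cnr2 (0.27), a cannabinoid receptor of B cells, and to Rdm1 (0.35). Cxcr3 was closest to Ccr7 (0.86) and Ccl5 (0.92), and Ccr7 to Id2 (0.61) and Rgs1 (0.71), the latter a regulator of chemokine receptor signalling. As Cxcr3 had 0 counts in Eµ-PRMT5/TCL1 mouse 3, its distances depend on the prior count. Cxcr4 was closest to Psd (0.63) and Hist1h2bc (0.69), and Ccr6 to Cadm1 (0.61) and Satb1 (0.75). Itga4 was closest to Rtn4 (0.13) and Bub3 (0.18), Itgb7 to BC028528 and Lacc1 (0.26 each), and S1pr1 to Zc3h12a (0.32) and Nol8 (0.35). With 8 libraries and so many candidates these are descriptions of likeness.

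Among the ligands, carriers and enzymes that feed these receptors, 7 of 18 listed genes were tested and 0 were called between double transgenic and Eµ-PRMT5 mice (median log2 fold change -0.04). The genes left out for lack of a value or by the filter include Cxcl12, Cxcl13, Ccl19, Ccl21a and Madcam1, which are made mainly by stromal and endothelial cells. Mfsd2b, a sphingosine-1-phosphate exporter of red cells and platelets, was the only one at an unadjusted p under 0.05 and the only one whose groups did not overlap. It measured 8.73, 12.03, 5.70 and 34.0 CPM in Eµ-PRMT5 mice and 5.25, 4.43 and 3.07 CPM in Eµ-PRMT5/TCL1 mice (log2 fold change -1.83, standard error 0.67, unadjusted p = 0.0184, adjusted p = 1.00 by edgeR's quasi-likelihood test). The erythroid marker sum was highest, 355 CPM, in Eµ-PRMT5 mouse 4, which also had the highest Mfsd2b. It was 324 CPM in Eµ-PRMT5/TCL1 mouse 1, with Mfsd2b at 5.25 CPM, and 23.6 CPM in Eµ-PRMT5 mouse 2, with Mfsd2b at 12.03 CPM. The part of erythroid cells in the Mfsd2b level was not tested. Spns2, another exporter (-0.74, unadjusted p = 0.26), and Cxcl10 (0.99, unadjusted p = 0.312) came next in edgeR's quasi-likelihood test.

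Of 21 other chemokine and egress receptors, 14 were tested, 0 were called and 0 had an unadjusted p under 0.05, with a median log2 fold change of 0.48. Gpr18, a receptor of lymphocytes, did not overlap between the groups, at 124 to 157 CPM in Eµ-PRMT5 mice and 177 to 296 CPM in Eµ-PRMT5/TCL1 mice (0.64, standard error 0.31, adjusted p = 1.00, edgeR's quasi-likelihood test). Ccr1 had a log2 fold change of 0.60 and Cx3cr1 of 1.14, and both groups overlapped for each.

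Of 15 other adhesion molecules, 14 were tested and 0 were called, with a median of -0.04. Itga6, the laminin receptor chain, measured 22.3, 21.7, 21.4 and 16.5 CPM in Eµ-PRMT5 mice and 9.35, 12.3 and 7.38 CPM in Eµ-PRMT5/TCL1 mice, with no overlap (-1.08, standard error 0.43, unadjusted p = 0.0283, adjusted p = 1.00, edgeR's quasi-likelihood test). The other gene with no overlap was Itgal, the LFA-1 chain, chosen here after its values were seen, at 249 to 423 CPM and 428 to 552 CPM. Itga5, the fibronectin receptor chain, had a log2 fold change of 1.36 (unadjusted p = 0.0256, adjusted p = 1.00, edgeR's quasi-likelihood test), with overlapping groups and with 199 CPM in Eµ-PRMT5/TCL1 mouse 1, and Itgav was at -0.97.

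Of 23 regulators of these receptors and of migration, 22 were tested and 0 were called, with a median of 0.04. Cd69, which binds S1PR1 and takes it off the surface, measured 209, 212, 77.7 and 75.8 CPM in Eµ-PRMT5 mice and 76.7, 80.1 and 66.4 CPM in Eµ-PRMT5/TCL1 mice (-0.95, standard error 0.43, unadjusted p = 0.0492, adjusted p = 1.00, edgeR's quasi-likelihood test). Eµ-PRMT5 mice 1 and 2 were high for Cd69 and were also the highest for S1pr1 and Cxcr4. Rgs13, a germinal center brake on chemokine receptor signalling, was at -3.41 (standard error 1.10, unadjusted p = 0.00908, adjusted p = 1.00, edgeR's quasi-likelihood test), with Eµ-PRMT5 mouse 4 at 48.1 CPM, the other 3 at 1.11 to 8.21 CPM and the Eµ-PRMT5/TCL1 mice at 0.858 to 1.84 CPM. Foxo1, a transcription factor upstream of several homing receptors, was at -1.26 with overlapping groups. In all 4 lists together, the genes of the 2 directions at an unadjusted p under 0.05 were Itga5 alone against Mfsd2b, Itga6, Cd69 and Rgs13, where 0.957% of all genes were higher and 1.21% lower. Groups did not overlap for 1.35% of all genes upward, as for Gpr18 and Itgal, and for 1.59% downward, as for Mfsd2b and Itga6.

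The Eµ-TCL1 mouse was compared last. It is the control of both comparisons that follow, so they share it. All 9 receptors had a positive log2 fold change in Eµ-PRMT5 mice against it, from 0.21 for Cxcr5 to 2.23 for Cxcr3, with a median of 1.00, against 51.9% positive and a median of 0.04 over all genes. With library size only as the scaling Cxcr4 turned to -0.02. None passed edgeR's quasi-likelihood test, with 0 of 9 members and 0 of 13173 genes (0%) called and adjusted p from 0.732 to 0.96 for the members. No member was at an unadjusted p under 0.05, against 1.96% of all genes higher and 4.82% lower, and DESeq2 had none either. The largest values were 2.23 for Cxcr3 (standard error 1.65), 2.06 for Ccr7 (1.49), 1.39 for Ccr6 (1.38) and 1.25 for S1pr1 (0.89). The Eµ-TCL1 mouse lay below every Eµ-PRMT5 mouse for 3 of the 9, Cxcr3, Ccr7 and Itga4, against 17.9% of all genes, and above every one for 0, against 24.4%.

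Against the Eµ-PRMT5/TCL1 mice, the same mouse had higher Cxcr4 and Ccr6 than each of the 3, that is for 2 of 9 genes against 39% of all genes tested. It was below each of them for 4 of 9, Cxcr5, Itga4, Itgb7 and S1pr1, against 27.6%. The log2 fold change of Eµ-PRMT5/TCL1 against Eµ-TCL1 was -1.98 for Cxcr4 (standard error 1.15, adjusted p = 0.778) and 1.30 for Itgb7 (standard error 0.72, adjusted p = 0.778, edgeR's quasi-likelihood test). The others ran from -1.33 for Ccr6 to 0.79 for Cxcr5, and the median was 0.55 over the 9 genes and -0.07 over all genes. Called were 0 of 9 members and 0 of 13173 genes (0%), and at an unadjusted p under 0.05 no member, against 1.75% of genes higher and 4.33% lower. DESeq2 called 0 members and had 1 at an unadjusted p under 0.05, Itgb7. The split of all genes at an unadjusted p under 0.05 was 231 higher and 571 lower as given, 195 and 562 with upper-quartile scaling and 137 and 781 with library size only. For Eµ-PRMT5 against Eµ-TCL1 it was 258 and 635, 166 and 662, and 128 and 794. With DESeq2, which differs in its test as well as its scaling, it was 476 and 454, and 646 and 480.

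In the 4 lists of related genes, 0 genes were called against the Eµ-TCL1 mouse in either comparison by edgeR's quasi-likelihood test. Among those at an unadjusted p under 0.05, named after their values were seen, were Ccr1 for Eµ-PRMT5 mice, and Ccr1, Gpr18, Ccr4 and Rgs13 for Eµ-PRMT5/TCL1 mice. Ccr1, a chemokine receptor of myeloid cells, had a log2 fold change of 1.26 and 1.86 (adjusted p = 0.709 and 0.778, edgeR's quasi-likelihood test). Ccr4, a receptor of T helper cells, had the opposite sign, at -1.56 and -1.84 (unadjusted p = 0.0654 and 0.0414, edgeR's quasi-likelihood test).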

How the data were processed

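The deposited matrix holds raw counts, 1 row per symbol and 1 column per mouse, which the authors made by low-input preamplification, paired-end sequencing and the CLEAR workflow, with no normalization or pooling. The submitters' processing notes name Subread, featureCounts, GRCm38 and DESeq2 1.20.0, with no role for each. The aligner, annotation and use of strand are not given in the sources used here, and the labels describe another library kit. The matrix holds 36919 cells marked NA, so only symbols counted in all 8 libraries (14072) were used, and 26 rows bear a date in place of a symbol. Samples were grouped by the transgene in their labels.

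Counts were tested in edgeR 4.0.16 (R 4.3.3) with TMM factors, the filter by group, and 1 model over 3 groups, by its quasi-likelihood test. P-values were adjusted by Benjamini and Hochberg. Log2 CPM used a prior count of 2. The scripts were tested on simulated data. Ratios of receptors used exact permutation (Python 3.11.15). Named are all 9 members, the 2 genes most like each, and the 3 genes of each list with the smallest p. The members and lists were chosen with earlier results of these data known. The alternatives were DESeq2 1.42.0, other scalings, filters, prior counts, samples and each mouse left out. Depth sets counting error, which is large under 10 counts. Some genes of the lists are not reported here by name.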

Additional observations from a re-analysis of the deposited data

Results flagged for a closer look

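In each group of 4 to 10 samples, here the 4 Eµ-PRMT5 mice alone, a sample was singled out where its gap to the nearest other sample was a larger share of the group's range than Dixon's 95% critical value. Of 32 sets of values examined, 5 were singled out. Among independent sets of normally distributed values, about 1 in 20, or 1.6, would be. The sets here share the same 4 mice and their distribution was not tested, so 5 against 1.6 does not measure an excess. Ccr7 was 1251 CPM in Eµ-PRMT5 mouse 2 and 238 CPM in the next mouse, a gap of 0.907 of the range. Among genes of the other lists, Itga6 was 16.5 CPM in Eµ-PRMT5 mouse 4 and 21.4 CPM in the next, and Rgs13 was 48.1 CPM in the same mouse and 8.21 CPM in the next. The summed T cell markers were 830 CPM in Eµ-PRMT5 mouse 3 and 339 CPM in the next, and the summed NK cell markers 364 CPM and 56.3 CPM. In Eµ-PRMT5 mouse 3, Cxcr4 was the lowest of the 8 mice (7.52 CPM), and the part of T and NK cell RNA in that mouse's receptor levels was not tested.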

How the results depend on the processing

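No member was called under any of the alternatives tried. DESeq2 called 4 genes in Eµ-PRMT5/TCL1 against Eµ-PRMT5 mice, 18 in Eµ-PRMT5 against Eµ-TCL1 and 16 in Eµ-PRMT5/TCL1 against Eµ-TCL1, where edgeR called 0; the cause was not tested. Of 402 fold changes of members under alternatives, 388 kept their direction and 14 turned. In Eµ-PRMT5 against Eµ-TCL1, Cxcr4 was -0.0204 with library size only. In Eµ-PRMT5/TCL1 against Eµ-TCL1, Cxcr3 was -0.0892 with library size only. That scaling moved the median of all genes to -0.21 and -0.30 in these comparisons, from 0.04 and -0.07, and upper-quartile scaling moved it to -0.12 and -0.17. Whether the numbers in the labels pair the mice cannot be told from these values. Same-numbered deviations correlated at -0.0206, 0.154 and 0.16, and differently numbered ones at -0.108 to 0.12. With a replicate block over 6 mice, 0 genes were called, Gpr183 was -0.13 and Itga4 was 0.00156. At an unadjusted p under 0.05 in edgeR's quasi-likelihood test, 495 of 12550 genes were higher and 331 lower with the block. Below that p were 6 of 9 members, namely Ccr6, Ccr7, Cxcr3, Cxcr4, Itgb7 and S1pr1. In the same mice without the block, 374 of 12550 genes were higher and 368 lower, and 4 of 9 members were below it. The same 6 mice without the block gave -0.0411 for Gpr183.

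Leaving out 1 mouse at a time, the log2 fold changes of Eµ-PRMT5/TCL1 against Eµ-PRMT5 ran from -2.12 to 0.0187 for Ccr7 and from -0.271 to 0.555 for Gpr183 (-0.0385 without Eµ-PRMT5 mouse 4). Those of Eµ-PRMT5 against Eµ-TCL1 ran from -0.587 to 0.686 for Cxcr4, from -0.0952 to 0.554 for Cxcr5 and from -0.00324 to 0.59 for Gpr183. Those of Eµ-PRMT5/TCL1 against Eµ-TCL1 ran from -0.584 to 0.714 for Cxcr3 and from -0.062 to 1.30 for Ccr7. The ratios ran from 0.889 to 3.01 for Cxcr5 over Ccr7, from -2.14 to -0.764 for Cxcr4 over S1pr1 and from 0.367 to 0.915 for Itgb7 over Itgb1. The 48.3% variation between mice and the single Eµ-TCL1 mouse limit what these libraries can show.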
